A study of Mus musculus with 7 samples.

Results

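The 9 complement genes described here are C1qa, C1qb, C1qc, C3, C4b, C3ar1, C5ar1, Cfb and Serping1, taken by symbol from a table of 24346 genes measured by RNA sequencing in mouse hippocampal neurospheres. All 9 were in the table and all 9 reached the mean of 0.5 FPKM required for testing, so they stand among 14151 tested genes. Neurospheres are floating clusters that grow from neural stem and progenitor cells in culture. Med23 is a subunit of Mediator, the complex that links transcription factors to RNA polymerase II, and the study asked how transcription differs in neural stem cells (NSCs) that lack it. The cultures came from the hippocampus of 2-month-old C57/BL6 mice and were harvested after 8 days. The 3 Med23 CKO libraries came from Nestin-CreER:Med23 flox/flox mice, and the 4 control libraries from littermates, labelled wild type, which by the study's methods were Med23 flox/+ or Med23 flox/flox. Tamoxifen was given by gavage to both groups at 200 mg/kg once a day for 5 days, and the labels give a recovery of 3 to 4 weeks before most experiments. The study's methods place the tamoxifen for NSC cultures at a younger age than for its other experiments. Each library holds the neurospheres of a single mouse and carries that mouse's number. By the study's account the Nestin promoter drives Cre in NSCs and also in endothelial cells, so deletion may not be limited to one cell type. The culture holds unsorted cells, and in such bulk samples fewer cells of a type and less RNA per cell cannot be told apart.

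Complement is a cascade of plasma and tissue proteins that tags targets for removal by phagocytes. The classical pathway opens with C1q, which is built from A, B and C chains, and passes through C4 to C3, while factor B amplifies C3 cleavage in the alternative pathway and C1 inhibitor restrains the first proteases. In the brain, C1q comes mainly from microglia and other macrophages, astrocytes can make C3 and C4, and the receptors for the C3a and C5a fragments sit largely on myeloid cells. Most circulating C3 and factor B is made by hepatocytes.

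Levels are given in FPKM, sequenced fragments scaled by transcript length and by the number mapped in the library, as the authors deposited them. Differences are Med23 CKO minus control in log2(FPKM + 1), tested with limma and Benjamini-Hochberg adjustment over all 14151 genes, with an exact permutation p over the 35 ways of choosing 3 of 7 libraries beside single genes, which cannot fall below 0.0286. Med23 itself was at 11.4, 10.3, 12.9 and 10.1 FPKM in control libraries WT_215, WT_116, WT_213 and WT_220, against 9.97, 9.27 and 8.12 FPKM in CKO libraries KO_117, KO_214 and KO_218. Every CKO library lay below every control library, as in 1.53% of all tested genes, with a difference of -0.26 (SE 0.18, limma adjusted p = 0.9999, two-sided exact permutation p = 0.0571, 3 against 4). FPKM covers the whole gene, so transcripts that lack only the floxed exons still count, and this value is a weak check of the deletion. NSC transcripts were abundant in all 7 libraries, with Sox2 between 69.4 and 194 FPKM and Nes between 61.1 and 240.5 FPKM. Library KO_214 stood apart, with 12.2% of its summed FPKM in its 10 highest genes against 5.12% to 8.61% in the other 6, and the differences of the members are therefore given also without it.

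The complement genes had a higher mean in Med23 CKO neurospheres for 9 of 9 members, but none passed the test. Over all 14151 tested genes, 6196 had a higher and 7955 a lower CKO mean. The differences ran from 0.058 for Cfb to 1.12 for C3ar1, with a median of 0.89 beside -0.031 over all tested genes. By limma, 0 of 9 passed an adjusted p of 0.05 and 0 of 9 an unadjusted p of 0.05, where 0% of all genes passed the first and, for the second, 0.502% passed as higher and 0.996% as lower in CKO. In 0 of 9 did the 3 CKO libraries lie above the 4 controls, a pattern seen in 0.784% of all genes. A single library carried the higher means: KO_214 had the highest value for 8 of the 9 members, and for 25.4% of all genes. At the other end, control WT_220 and CKO KO_117 were the lowest pair for 7 of the 9, and for 26.7% of all genes.

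**Figure D1:**
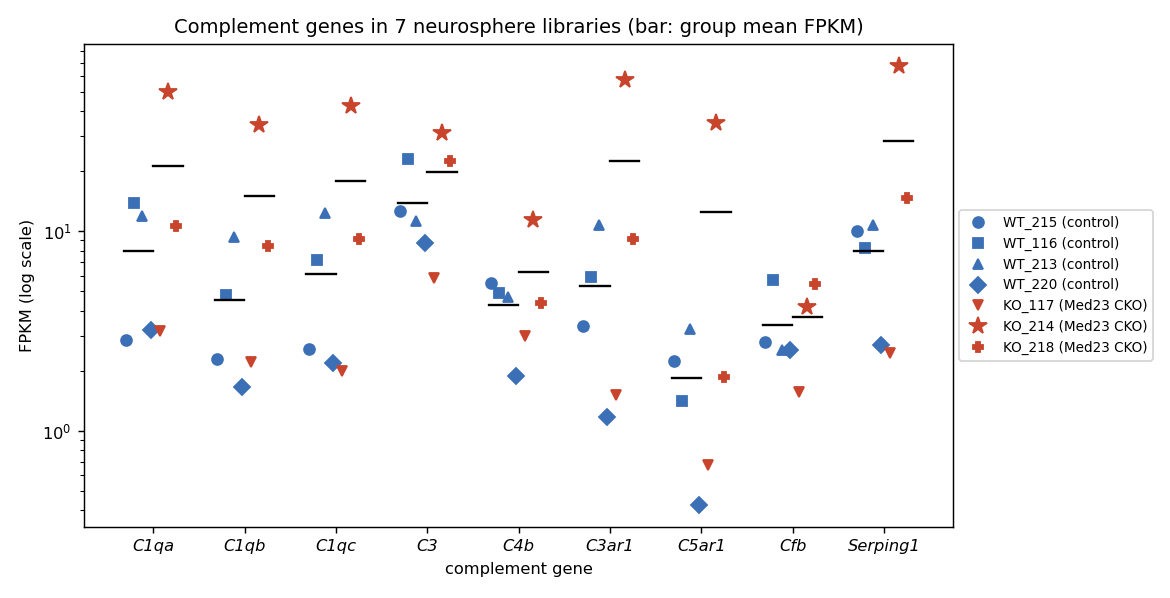
Level of each complement gene in FPKM (log axis) in the 4 control libraries (blue) and the 3 Med23 CKO libraries (red), with a marker shape for each mouse and a black bar at each group's mean FPKM. KO_214 is the highest point for 8 of 9 genes and lies inside the spread of the others for Cfb, while KO_117 lies among the lowest points.

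The C1q chains start the classical pathway by binding to tagged surfaces. C1qa, which encodes the A chain, was at 2.86, 13.8, 11.99 and 3.21 FPKM in WT_215, WT_116, WT_213 and WT_220, against 3.17, 50.1 and 10.7 FPKM in KO_117, KO_214 and KO_218. KO_117 lay between the 2 low controls and KO_218 fell between the low and the high controls, so only KO_214 lay outside the control range. The difference was 0.86 (SE 0.89, limma adjusted p = 0.9999, two-sided exact permutation p = 0.6). C1qb, the B chain, was at 2.29, 4.80, 9.35 and 1.67 FPKM in controls and at 2.21, 34.2 and 8.44 FPKM in CKO libraries, in the same order. The groups overlapped again, with KO_214 at 3.66 times the highest other library, WT_213. Its difference was 1.09 (SE 0.82, limma adjusted p = 0.9999, two-sided exact permutation p = 0.314). C1qc, the C chain, was at 2.57, 7.15, 12.4 and 2.19 FPKM in controls and at 2.00, 42.6 and 9.19 FPKM in CKO libraries. The lowest and the highest library were both CKO, and the difference was 0.89 (SE 0.91, limma adjusted p = 0.9999, two-sided exact permutation p = 0.543).

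The 3 chains assemble in equal numbers, and their transcripts kept similar proportions while their sum varied widely. Summed over the chains, the level was 7.73, 25.7, 33.7 and 7.07 FPKM in the 4 controls and 7.39, 126.9 and 28.3 FPKM in the 3 CKO libraries. C1qa made up 35.5% to 53.6% of that sum, C1qb 18.6% to 30.0% and C1qc 27.1% to 36.7%, and the highest C1qa share was in control WT_116. The genes lie side by side on the minus strand of chromosome 4, in the order C1qb, C1qc, C1qa within chr4:136880129-136898803 (GRCm38, GENCODE), a stretch of 18675 bases. Across the 7 libraries C1qb and C1qc had the most alike patterns of all pairs of members, with a root mean square difference of 0.18 in log2(FPKM + 1) once each gene was centred on its own mean. The transcripts of the 3 genes share no stretch of 50 bases.

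Promoter sequences from RefSeq (GRCm38.p6) were matched for 5 of the 9 members, C1qb, C1qc, C3ar1, C5ar1 and C3. The full window of 250 bases was searched on both strands for GAGGAAG (the core bound by the myeloid factor PU.1), TTCNNNGAA (STAT) and TTGCNNAA (C/EBP). It was also searched for the interferon stimulated response element and the NF-kB site. These are motifs of factors known to act on immune genes. Among 32851 mouse promoters of full length these letters occur in 13.6%, 8.3%, 10.8%, 3.44% and 1.63%, respectively. The 3 windows that hold a match are printed only for the stretch upstream of the annotated exons, 5′ to 3′ on the gene's strand. The match is in capitals, and the stretches are a description of the letters only.

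C1qc: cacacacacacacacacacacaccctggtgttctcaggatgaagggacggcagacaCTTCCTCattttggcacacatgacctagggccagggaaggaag

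C3ar1: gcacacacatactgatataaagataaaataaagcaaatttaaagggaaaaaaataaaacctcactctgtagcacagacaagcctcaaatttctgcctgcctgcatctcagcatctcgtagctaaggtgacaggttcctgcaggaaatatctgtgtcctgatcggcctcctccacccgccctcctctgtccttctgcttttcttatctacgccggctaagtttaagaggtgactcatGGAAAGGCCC

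C3: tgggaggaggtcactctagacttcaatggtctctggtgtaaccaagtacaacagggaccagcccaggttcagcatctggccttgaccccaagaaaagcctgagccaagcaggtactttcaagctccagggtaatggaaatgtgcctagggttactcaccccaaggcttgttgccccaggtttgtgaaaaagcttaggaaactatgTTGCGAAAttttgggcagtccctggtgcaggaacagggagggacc

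The C1qc stretch covers 99 bases at chr4:136893066-136893164 and holds the PU.1 core on the opposite strand, with its first base 194 bases upstream of the RefSeq start. The C3ar1 stretch covers 246 bases at chr6:122856162-122856407 and ends in an NF-kB match on the opposite strand, 14 bases upstream of the start. In C3 the C/EBP match lies on the gene's own strand 45 bases upstream, within chr17:57228137-57228386. The interferon and STAT letters were found in none of the 5 windows, and the C1qb and C5ar1 windows held no match to any of the motifs.

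C4b and C3 carry the cascade forward from C1q. C4b encodes C4, which is cleaved by the C1 proteases to help form the C3 convertase. It was at 5.49, 4.92, 4.71 and 1.89 FPKM in WT_215, WT_116, WT_213 and WT_220, against 2.99, 11.3 and 4.38 FPKM in KO_117, KO_214 and KO_218. Both other CKO libraries lay inside the control range, and KO_214 was 2.07 times the highest control. The difference was 0.36 (SE 0.45, limma adjusted p = 0.9999, two-sided exact permutation p = 0.571). C4a, a near copy on the same chromosome, was listed at 5.97% to 11.8% of C4b. The longest C4b transcript shares 35.2% of its 50-base windows with C4a, and the split of reads between them is uncertain.

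C3, the central component on which all complement pathways converge, had the highest control mean of the 9 members, at 13.9 ± 6.3 FPKM (SD, n = 4). Its level was 12.6, 23.1, 11.3 and 8.77 FPKM in controls and 5.82, 31.2 and 22.5 FPKM in CKO libraries. The CKO libraries held both the lowest and the highest value, with WT_116 and KO_218 next below KO_214. The difference was 0.30 (SE 0.56, limma adjusted p = 0.9999, two-sided exact permutation p = 0.686). Cfb encodes factor B, the protease that joins C3b in the alternative pathway convertase, and it lies at chr17:34856374-34862518, 85 bases from C2. Cfb was at 2.80, 5.73, 2.54 and 2.54 FPKM in controls and at 1.56, 4.16 and 5.45 FPKM in CKO libraries. Here KO_214 was not the highest library, WT_116 and KO_218 were, and the groups overlapped. The difference was 0.058 (SE 0.39, limma adjusted p = 0.9999, two-sided exact permutation p = 0.943). The annotation places a same-strand gene, Gm20547, over 79.5% of the exon bases of Cfb, so its FPKM is uncertain.

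The receptors showed the widest spread of the members. C3ar1, the receptor of the C3a fragment, was at 3.36, 5.89, 10.8 and 1.17 FPKM in WT_215, WT_116, WT_213 and WT_220, against 1.52, 57.1 and 9.20 FPKM in KO_117, KO_214 and KO_218. KO_117 sat beside WT_220 at the bottom, and KO_214 stood 5.30 times above the next library, WT_213. The difference was 1.12 (SE 1.04, limma adjusted p = 0.9999, two-sided exact permutation p = 0.429). C5ar1, the receptor of the C5a fragment and a chemotactic receptor of myeloid cells, was at 2.25, 1.41, 3.25 and 0.426 FPKM in controls and at 0.673, 35.1 and 1.87 FPKM in CKO libraries. Outside KO_214 no library exceeded 3.25 FPKM, and KO_214 was 10.8 times that value, the largest such gap among the members. The difference was 1.09 (SE 1.003, limma adjusted p = 0.9999, two-sided exact permutation p = 0.486). Between the lowest and the highest library the log2(FPKM + 1) values of C3ar1 spanned 4.74 and those of C5ar1 4.66, wider spans than those of 99.2% of tested genes in each case. Cfb had the narrowest span of the members, at 1.39, which is wider than that of 68.9% of tested genes.

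Serping1 encodes C1 inhibitor, which blocks the C1r and C1s proteases. It was at 10.03, 8.24, 10.7 and 2.69 FPKM in controls and at 2.47, 67.4 and 14.7 FPKM in CKO libraries. KO_218 lay above all 4 controls and KO_214 far above both, while KO_117 was the lowest library of all. The difference was 0.93 (SE 0.94, limma adjusted p = 0.9999, two-sided exact permutation p = 0.457).

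The direction of the comparison depended on KO_214. Without KO_214, 8 of the 9 members had a lower mean in CKO than in control libraries, the differences ran from -0.26 for C5ar1 to 0.20 for C1qb, and their median was -0.10. Without KO_117, all 9 had a higher CKO mean, with differences from 0.45 for Cfb to 2.21 for C3ar1. In that fit C1qb, C1qc, C3, C3ar1 and Serping1, 5 of the 9, reached an unadjusted limma p of 0.05, as did 2.54% of all genes on the higher side, and the smallest adjusted p among the members was 0.597. Leaving out KO_218 or any single control kept the sign of 8 of the 9 members, and Cfb alone changed sign, to -0.22 without KO_218 and to -0.029 without WT_213 and -0.028 without WT_220.

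**Figure D2:**
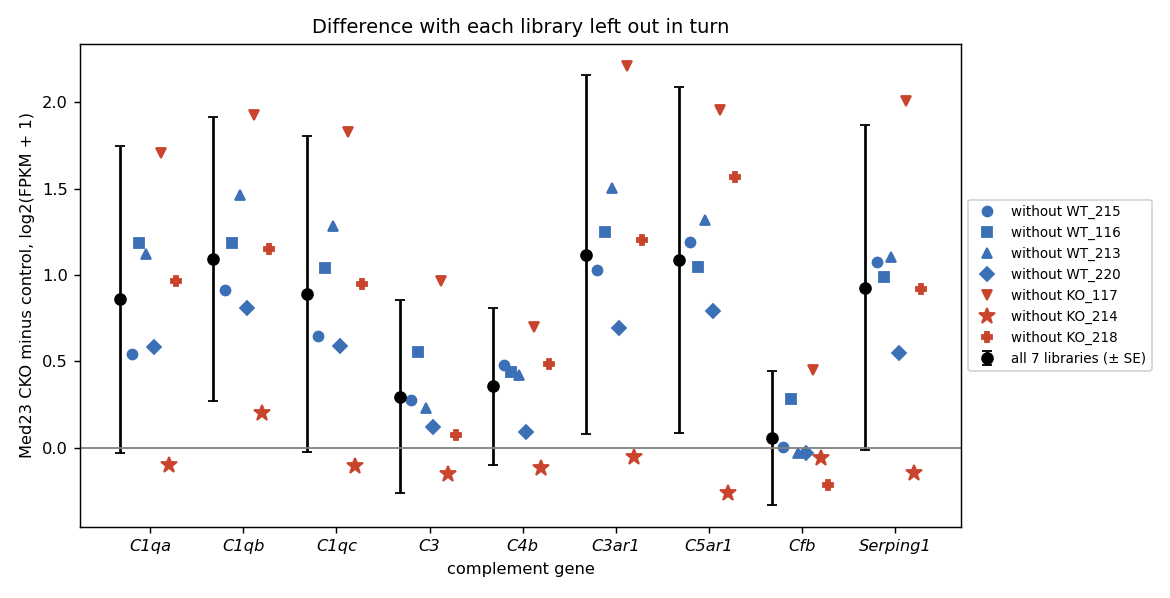
Difference of Med23 CKO minus control in log2(FPKM + 1) for each complement gene with all 7 libraries (black, bars ± 1 SE) and with 6 libraries (colored markers, shaped by the library left out). Without KO_214 the differences lie between -0.26 and 0.20, and without KO_117 they lie between 0.45 and 2.21.

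Most markers of microglia were highest in the same library as the members. The list holds 20 genes, and its mean log2(FPKM + 1) was 2.17, 2.79, 3.14 and 1.62 in WT_215, WT_116, WT_213 and WT_220, against 1.65, 4.39 and 2.75 in KO_117, KO_214 and KO_218. KO_214 was again the highest, and WT_220 and KO_117 the lowest. Summed over the list, the level ran from 89.7 to 460 FPKM in controls and from 96.1 to 1920 FPKM in CKO libraries. The most abundant were Tyrobp, the adaptor of activating myeloid receptors, at 14.3 to 492 FPKM, and Ctss, the lysosomal protease cathepsin S, at 7.60 to 375 FPKM. Of the 20 markers 16 were tested, 16 had a higher CKO mean, 0 passed the test, and their median difference was 0.73. KO_214 was the highest library for 14 of the 16, against 25.4% of all genes. Of these, Tmem119 passed the filter on low values only through KO_214, so its highest library was fixed. Among markers of resting microglia, Cx3cr1, Gpr34, P2ry12 and Siglech were low and not highest in KO_214, while P2ry13 was low and highest there. Tmem119 and Fcrls were also highest in KO_214. Tmem119 was at 4.04 FPKM there and at most 0.414 FPKM elsewhere, and Fcrls at 9.96 FPKM against at most 7.11 FPKM. P2ry13 and Siglech were under 0.5 FPKM in every library, and the means of Cx3cr1 and Gpr34 were also under 0.5 FPKM. Cx3cr1, the fractalkine receptor, was at 0.157 FPKM in KO_214 and highest in WT_213 at 0.782 FPKM. Gpr34 was at 0.135 FPKM in KO_214 and highest in WT_116 at 0.985 FPKM, and P2ry12, a purinergic receptor, was at 1.24 FPKM in KO_214 and highest in WT_116 at 1.60 FPKM. Sall1 is also expressed in neural progenitors, so it does not separate the cell types.

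Set against the microglia marker mean of the same library, the members differed less between libraries. C1qa less that mean had an SD of 0.49 over the 7 libraries, where C1qa alone had 1.36, and for C1qb the values were 0.43 and 1.31. C3ar1 went from an SD of 1.61 to 0.67 and Serping1 from 1.45 to 0.61. For Cfb the SD was larger against the marker mean, 0.82, than alone, 0.51. With the marker mean as a covariate in the limma fit, 7 of the 9 members had a higher and 2 a lower CKO level, the lower ones being C3 at -0.049 and Cfb at -0.093. C1qb was then at 0.46 (SE 0.20, limma adjusted p = 0.999) and was the 1 member to reach an unadjusted p of 0.05, as did 1.14% of all genes on the higher side. The part of microglia or macrophage RNA in the differences was not tested.

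**Figure D3:**
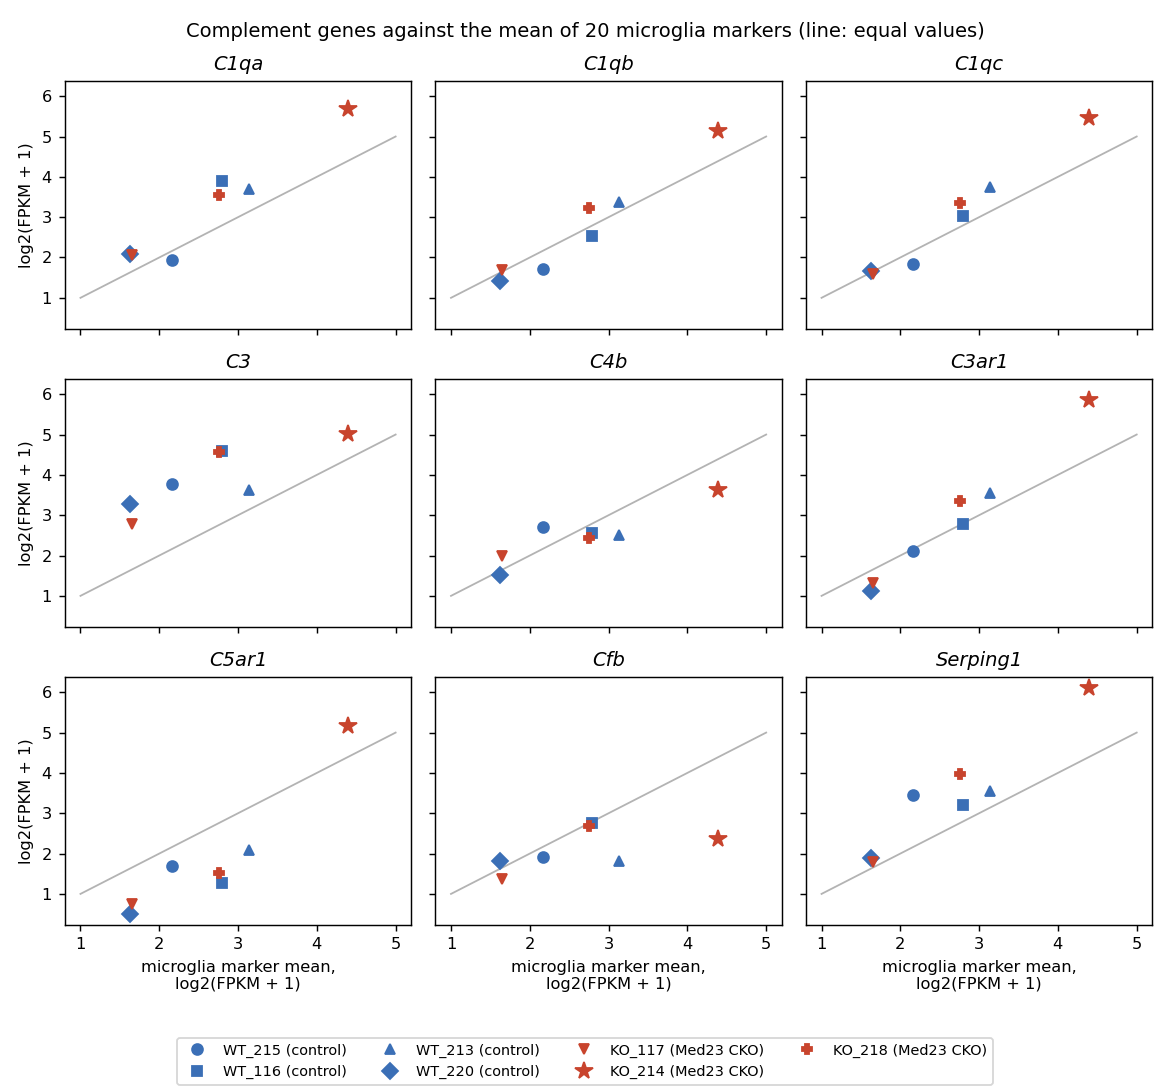
Each panel sets the log2(FPKM + 1) of a complement gene (vertical axis) against the mean log2(FPKM + 1) of 20 microglia markers (horizontal axis) in the 4 control (blue) and 3 Med23 CKO (red) libraries, and the gray line marks equal values. WT_220 and KO_117 lie at the lower left and KO_214 at the upper right for the C1q chains, C3ar1 and Serping1, and these genes stand above the line in KO_214, C3ar1 by 1.47 and Serping1 by 1.70, whereas Cfb lies 2.03 below it.

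The genes whose centred patterns were nearest to the members, over 7 libraries, are given as a description. For C1qa they were Aif1, a microglia marker in the list, at a root mean square difference of 0.18, then the receptors Cd200r1 and Cd72. For C1qb they were Stab1, a scavenger receptor in the border macrophage list, C1qc and the toll-like receptor Tlr13. For C1qc they included Cdh5, the cadherin of endothelial cells, and C1qb. C3ar1 had the closest match, Nckap1l, an actin regulator of blood cells, at 0.11, followed by Cybb, a subunit of the phagocyte NADPH oxidase, and Laptm5. C5ar1 was nearest to Adam8, Cd14, a coreceptor for lipopolysaccharide, and Pik3ap1, and Serping1 to Srgn, Fxyd5 and Pon3. C4b was nearest to Trip6, Phyhd1 and Sp140, and the nearest to C3 included Calr3 and Rom1. Cfb varied by less than 2 on this scale and was not matched.

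Transcripts typical of hepatocytes were also present in the neurosphere libraries. Alb, which encodes serum albumin, was at 91.2, 230.0, 104.9 and 68.2 FPKM in WT_215, WT_116, WT_213 and WT_220, against 49.6, 75.8 and 236 FPKM in KO_117, KO_214 and KO_218. WT_116 and KO_218 were the high libraries, and the groups overlapped. The mean log2(FPKM + 1) of 12 hepatocyte markers, a list written after these transcripts were seen, was 4.39, 5.51, 4.48 and 4.17 in controls and 3.61, 4.08 and 5.55 in CKO libraries. WT_116 and KO_218 were the highest pair for 12 of the 12 markers, for Cfb among the 9 members, and for 5.74% of all genes. Summed, the markers ran from 259 to 706 FPKM in controls and from 175 to 732 FPKM in CKO libraries, and of the 12 tested 12 had a lower CKO mean, 0 passed, and the median difference was -0.21.

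As a share of Alb, C3 and Cfb spread less than in FPKM in 6 of the 7 libraries. C3 was 9.55% to 13.8% of Alb in 6 libraries and 41.1% in KO_214. Cfb was 2.31% to 3.73% of Alb in the same 6 and 5.49% in KO_214. Further complement genes with a known source in liver were not all set against Alb. Those that were, C9, C8a, Hc, Cfhr2, C4bp and Mbl2, did not have their highest ratio in KO_214. From the lowest to the highest of the 7 libraries their ratios spanned 1.38-fold for C4bp to 2.42-fold for Mbl2, beside 2.38-fold for Cfb and 4.31-fold for C3. C8a, part of the membrane attack complex, was lowest relative to Alb in KO_214, at 0.806% against 1.06% to 1.43% elsewhere. C9 of the same complex was 1.003% to 2.17% of Alb, Hc, which encodes C5, was 0.532% to 0.830%, and C4bp, which encodes C4b-binding protein, was 1.20% to 1.66%. With the means of the microglia and hepatocyte markers together as covariates, 9 of the 9 members had a higher CKO level and C1qb alone reached an unadjusted p of 0.05, as did 1.85% of all genes on the higher side. The part of hepatocyte-type transcripts in the C3 and Cfb levels was not tested.

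**Figure D4:**
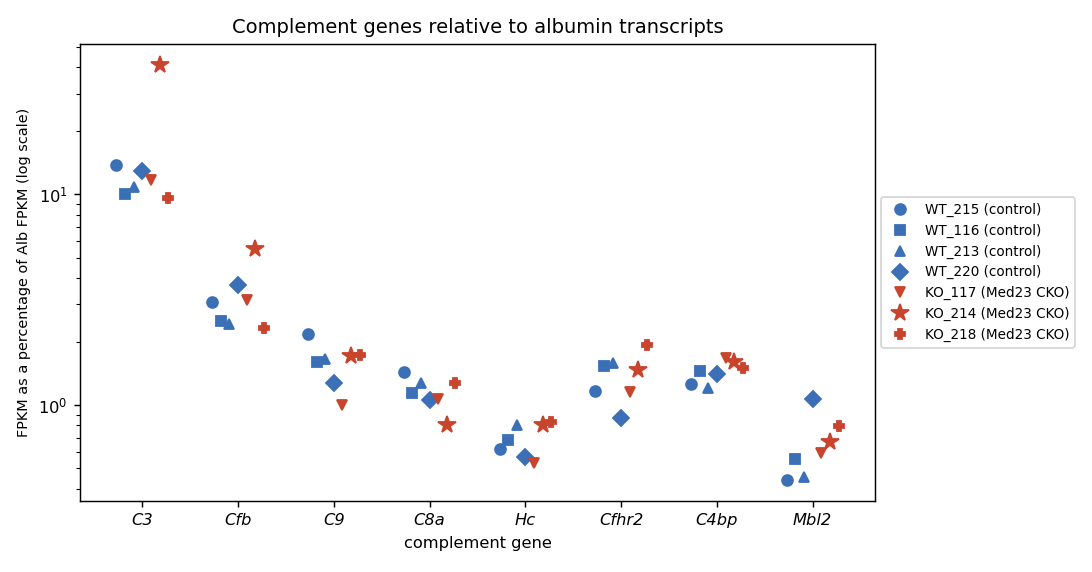
FPKM of complement genes as a percentage of Alb FPKM in the same library (log axis) in 4 control (blue) and 3 Med23 CKO (red) libraries. In KO_214 (star) C3 stands at 41.1% against 9.55% to 13.8% elsewhere, while C9, C8a, Hc, Cfhr2, C4bp and Mbl2 in KO_214 lie within the range of the other libraries or close to it.

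The wider complement system was read from 6 lists that exclude the 9 members. Of their 54 genes 53 were in the table and 39 were tested, 22 with a higher and 17 with a lower CKO mean, a median difference of 0.036, and 0 past the test in either direction. Among 6 proteases and components tested, 4 were higher and 2 lower. Cfp encodes properdin, which stabilizes the alternative convertase, and was at 3.93 to 4.91 FPKM in 6 libraries and at 16.5 FPKM in KO_214, a difference of 0.44 (SE 0.44). C1s1, a protease of the C1 complex, differed by 0.39 (SE 0.57). Among 5 lectins tested, 4 were higher and 1 lower, and Colec12, a scavenger receptor with a collectin domain, was at 34.7 FPKM in KO_214 and at 0.622 to 6.37 FPKM elsewhere. Fcna, counted as higher, passed the filter only through KO_214, at 1.91 FPKM there and at most 0.599 FPKM elsewhere. Of 5 terminal pathway genes tested 2 were higher and 3 lower, and 4 of the 5 had WT_116 and KO_218 as their highest pair.

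Among regulators and receptors the highest library was not the same for all genes. Of 7 soluble regulators tested, 5 were higher and 2 lower, and 5 of the 7 had WT_116 and KO_218 as the highest pair. Clu, which encodes clusterin, was the most abundant of the list, at 22.7 to 89.5 FPKM. Of 9 membrane regulators tested, 1 was higher and 8 were lower, and Susd4, a regulator expressed in neural cells, was at 24.5, 5.87, 11.7 and 24.7 FPKM in controls and at 18.9, 4.25 and 6.55 FPKM in CKO libraries. Unlike in most members, WT_220 and KO_117 were among the high libraries and KO_214 was the lowest, and the difference was -0.75 (SE 0.61). Of 7 receptors tested, 6 were higher and 1 lower. Itgb2 and Itgam, the chains of complement receptor 3 on phagocytes, differed by 0.96 (SE 1.08) and 0.95 (SE 0.97), and in KO_214 they reached 83.7 and 36.3 FPKM against at most 16.8 and 5.30 FPKM elsewhere.

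Markers of other cells the culture could hold were counted in the same way, and none of the lists had a gene past the adjusted test. These counts stand beside 6196 higher and 7955 lower among all 14151 tested genes. Of 8 border macrophage markers 5 were tested, all 5 were higher, and KO_214 was the highest library for 4. Of those under the filter, Lyve1 and F13a1 also had higher CKO means. Cd163, also under it, was lower, at 0.0516 to 0.335 FPKM in controls and 0.0279 to 0.0565 FPKM in CKO libraries. Pf4, a chemokine of macrophages and megakaryocytes, lay above the controls in all 3 CKO libraries, as in 0.784% of all genes. It was at 1.15, 1.47, 1.15 and 1.20 FPKM in controls and at 7.55, 2.14 and 3.86 FPKM in CKO libraries, a difference of 1.18 (SE 0.34, limma adjusted p = 0.9999, two-sided exact permutation p = 0.0286). Unlike most members, Pf4 was highest in KO_117. Endothelial markers were higher for 10 of 11 tested and pericyte and fibroblast markers for 9 of 9, with KO_214 the highest library for all 11 and all 9. Of the pericyte and fibroblast markers, Lum and Col1a1 passed the filter on low values only through KO_214. They were at 3.71 and 11.2 FPKM there and at most 0.564 and 0.640 FPKM elsewhere, so their highest library was fixed by the filter. NSC markers were higher for 2 of 12, astrocyte markers for 5 of 8, oligodendrocyte lineage markers for 1 of 8, neuron markers for 3 of 6, and choroid plexus and ependymal markers for 0 of 4. Fgfr3, an astrocyte and progenitor receptor, was at 20.3, 14.2, 27.6 and 50.3 FPKM in controls and at 5.32, 15.2 and 11.5 FPKM in CKO libraries, a difference of -1.28 (SE 0.48, limma adjusted p = 0.9999, two-sided exact permutation p = 0.0857).

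Genes known to induce complement transcription, among them cytokines, their receptors, STAT and C/EBP factors, had a higher CKO mean for 13 of 14 tested, with 0 past the test and a median difference of 0.36. KO_214 was the highest library for 12 of the 14. Il6, at 3.36 FPKM in KO_214 and at most 0.331 FPKM elsewhere, passed the filter only through KO_214, so its highest library was fixed. Tnfrsf1a, a receptor of tumor necrosis factor, was the most abundant at 38.8 to 83.7 FPKM. Reactive astrocyte genes were higher for 15 of 18 tested, with a median of 0.52, and KO_214 was the highest library for 18 of the 18. Lcn2, an iron-binding acute phase protein, ran from 6.30 to 118 FPKM in 6 libraries and reached 654 FPKM in KO_214. H2-T23, which encodes a nonclassical MHC class I chain, was named after its values were seen, as the 1 gene of this list whose CKO libraries all lay above the controls, a pattern found in 0.784% of all genes. It was at 3.07, 5.84, 5.26 and 6.30 FPKM in controls and at 6.69, 37.7 and 6.83 FPKM in CKO libraries, and it did not pass the adjusted limma test.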

How the data were processed

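RNA from primary hippocampal neurospheres was sequenced in 7 libraries, 4 control and 3 Med23 CKO, matched to groups and mice by sample title. The study describes fewer control mice for its own comparison and does not name them, so every labelled control was kept. The authors removed adapters, mapped the reads with TopHat on mm10 and obtained FPKM per gene from Cuffdiff, and these FPKM values were deposited for each library. The deposited group means and the authors' comparison columns (log2 fold change, test statistic, p-value and q-value) were not used, and 0 columns belonged to other samples. No read counts were used and low FPKM values gave no whole fragments (at most 3.72% of low genes in one 0.05-wide log2 bin, over 21 pairs of libraries), so the depth is unknown and the number of libraries limits the precision.

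Genes with a mean of at least 0.5 FPKM were tested on log2(FPKM + 1), with a pseudocount of 1, by limma 3.58.1 in R 4.3.3 (lmFit, eBayes with trend, two-sided, Benjamini-Hochberg over 14151 genes). Single genes were also tested by exact permutation over 35 splits (smallest p 0.0286). Fold changes on this scale understate those of low genes. The filter took the mean over all 7 libraries, so a gene high in a single library could pass through that library and enter the list counts. In simulated data of the same size with the spread of each gene, 138 of 200 genes changed by 2 on the log2 scale were called, with 4 of the unchanged genes. There 5.1% of the unchanged genes had an unadjusted limma p under 0.05. In the real libraries 0.502% of all genes had such a p as higher and 0.996% as lower in CKO. The share of such changes that the test would find in the real libraries, or among the members, was not tested. Each library is a separate mouse.

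The members and the lists were chosen with earlier results of these data known. Named are the members, Med23, the up to 4 most abundant tested genes of each list and its genes with an unadjusted p under 0.05, and, for each member that spans at least 2 in log2(FPKM + 1), the 3 nearest genes. A few results for single genes are not reported here. Genes named outside that rule, the hepatocyte list and its covariates were chosen after seeing the data. Alternatives were another pseudocount (0.1), other filters on low values, quantile normalization, median centring, eBayes without trend or robust, array weights, the first digit of the mouse number or marker means as covariates, and leaving out each library. Coordinates and exons are from GENCODE M21 on GRCm38, promoters from RefSeq. A planned comparison of protein sequences was not made here.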

Additional observations from a re-analysis of the deposited data

Results flagged for a closer look

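Values far from the rest of their group were sought among the genes with values in the text, in the 4 control libraries, by the gap to the nearest library divided by the group's range, against Dixon's 95% critical value for 4 samples, a test by which chance picks about 1 group in 20. Cfb, factor B of the alternative pathway, had a gap share of 0.917, because control WT_116 stood at 5.73 FPKM and the other controls at 2.54 to 2.80 FPKM. Pf4, a chemokine of macrophages and megakaryocytes, had 0.839, because WT_116 stood at 1.47 FPKM above the other controls at 1.15 to 1.20 FPKM. The 3 Med23 CKO libraries are too few for this test.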

How the results depend on the processing

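No member, wider complement gene or microglia marker passed the adjusted limma test in any setting run, and the smallest adjusted p among the members lay between 0.594, with array weights, whose estimation stopped before it converged (0.597 without KO_117 among the other settings), and 0.99999, without WT_215. With the microglia marker mean as a covariate, C3 was at -0.049, Cfb at -0.093 and C1s1 at -0.0095. With the microglia and hepatocyte means together as 2 covariates, added after the data were seen, 1 gene passed as higher and 2 as lower in CKO, and 0 members passed. Leaving out each library in turn, the genes higher in CKO ranged from 0 to 1 (1 without KO_214 and 1 without KO_218), and the median difference of the members from -0.10 to 1.83. The ranges were -0.099 to 1.71 for C1qa, -0.10 to 1.83 for C1qc, -0.15 to 0.97 for C3, -0.11 to 0.70 for C4b, -0.055 to 2.21 for C3ar1, -0.26 to 1.96 for C5ar1, -0.22 to 0.45 for Cfb and -0.14 to 2.01 for Serping1. They were -0.31 to 2.04 for Itgb2, -0.27 to 1.85 for Itgam, -0.15 to 0.76 for Cfp and -0.26 to 0.95 for C1s1. The lowest value came without KO_214 for each of these but Cfb, where it came without KO_218. Cfb was also at -0.057 without KO_214, at -0.029 without WT_213 and at -0.028 without WT_220. The cause was not tested. C1qb, Med23, Susd4, Pf4 and Fgfr3 kept their sign in every setting run, but without a library Susd4 ranged from -1.30 (without KO_117) to -0.34 (without KO_214) and C1qb from 0.20 (without KO_214) to 1.93 (without KO_117). No paired analysis was possible because each library is a different mouse and the labels do not give the litters.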
